A study of Mus musculus with 19 samples.

Results

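The genes described here code for the proteins of the mitochondrial respiratory chain and ATP synthase. They are the protein-coding genes of the skin expression table whose symbol starts with mt-, with Ndufa, Ndufb, Ndufc, Ndufs or Ndufv and a digit, with Uqcr, with Cox4 to Cox8, or with Atp5. This rule, which uses no measured value, gave 94 of the 50686 genes in the table. Of these, 13 lie in the mitochondrial genome and 81 in the nucleus (38 of complex I, 8 of complex III, 18 of complex IV and 17 of complex V, by their symbols). All 13 mitochondrial and 79 nuclear members reached 1 TPM, a length-corrected share of all transcripts, in at least 3 mice and were tested among 16350 genes that did so. Outside this filter lay Cox8c, listed at 0 TPM in all 19 mice, and Cox7b2, listed at 0.52 TPM in 1 mouse and at 0 in the rest. Just inside it lay a second gene model named Ndufa13 (ENSMUSG00000048967, 0.40 to 5.09 TPM, 14 mice at 1 TPM or more), which overlaps the main Ndufa13 model (80.2 to 174 TPM).

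RNA-seq was run on skin taken on day 42 after bone marrow transplantation. Recipients in all groups were irradiated female BALB/c mice that received T cell-depleted marrow and splenocytes, and donors and recipients were 8 to 12 weeks old. Male B10.D2 donors gave a sclerodermatous form of chronic graft-versus-host disease, called Scl-cGVHD, a model of skin fibrosis in which donor lymphocytes react to minor histocompatibility antigens, and male BALB/c donors gave syngeneic controls. From day 7 to day 35 the mice received intraperitoneal anti-CX3CL1 monoclonal antibody (mAb, clone 5H8-4), which neutralizes the chemokine fractalkine, or control IgG. The groups were Scl-cGVHD with IgG (n = 3), Scl-cGVHD with 0.5 mg mAb (n = 3), Scl-cGVHD with 1 mg mAb (n = 5), syngeneic with mAb (n = 5, dose not in the labels) and syngeneic with IgG (n = 3). Each sample is the skin of 1 labelled mouse, and mice are called here by their label numbers.

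Complexes I to IV pass electrons from NADH and succinate to oxygen, complexes I, III and IV pump protons across the inner mitochondrial membrane, and ATP synthase (complex V) uses the proton gradient to make ATP. Mitochondrial DNA encodes the membrane-embedded cores of complexes I, III, IV and V and is transcribed as long RNAs that are cut into shorter ones. All other subunits are nuclear genes. Skeletal muscle, which lies under the dermis in mouse skin samples, and brown fat are rich in mitochondria and use their own isoforms of several complex IV subunits.

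Depth was 20325491 to 35005382 uniquely mapped read pairs per library (median 26198028). Differences between groups were tested with limma on log2(TPM + 1) in a single fit of the 5 groups, and a gene was called at a Benjamini-Hochberg adjusted p under 0.05 over the 16350 genes. The median log2 fold change over all tested genes was -0.33 in Scl-cGVHD IgG against syngeneic IgG and -0.32 in Scl-cGVHD 1 mg mAb against syngeneic mAb, so a gene at 0 on this scale stood above the typical gene. After rescaling by median-ratio factors both medians were -0.01, and both values are given below where they matter. Of leukocyte and neutrophil marker genes, 5 of 11 and 5 of 7 were higher in Scl-cGVHD IgG than in syngeneic IgG skin, beside 6.84% of all genes. Mouse ID_1537 (Scl-cGVHD IgG) had 3.58% of its TPM in 7 neutrophil genes, and syngeneic mAb mice ID_1533 and ID_1534 had low skeletal muscle shares of 0.914% and 1.34% beside hair keratin shares of 2.08% and 1.34%. In whole skin, fewer cells of a type and less RNA per cell cannot be told apart.

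The mitochondrial members cannot be read without their nuclear copies. A block of chromosome 1 (GRCm38, minus strand) holds pseudogenes that repeat part of mitochondrial DNA, and 7 of the 13 mitochondrial members share stretches of 100 bases, the length of 1 read, with a pseudogene there. The copy of mt-Co3 is Gm28437 at chr1:24613189-24613971, the copy of mt-Co2 is Gm28661 at chr1:24614885-24615565, and the copy of mt-Atp6 is Gm10925 at chr1:24613974-24614651. Over 783, 681 and 678 aligned bases these copies do not differ from their mitochondrial genes. The first 150 bases of the transcript of mt-Nd3, a complex I subunit, (chrMT:9459-9608, plus strand, GENCODE vM21 on GRCm38) are shown to let this likeness be seen. The capital marks the base that differs from the copy Gm28438 at chr1:24612775-24613119.
mt-Nd3: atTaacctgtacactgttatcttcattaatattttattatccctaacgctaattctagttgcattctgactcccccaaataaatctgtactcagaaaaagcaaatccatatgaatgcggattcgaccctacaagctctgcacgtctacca
In 345 aligned bases the only difference is T3C, counted from the first base, and the copy ends 3 bases before mt-Nd3 does. With the deposited values, the copy held 64.4% to 83.9% (over the 19 mice) of the sum of mt-Nd3 and Gm28438, weighted by effective length. For mt-Co3 the copy held 63.1% to 81.8%, for mt-Co2 87.4% to 95.2% and for mt-Atp6 84.9% to 94.9%. It held 10.8% to 65.2% for mt-Nd4l (copy Gm10222) and 11.3% to 49.6% for mt-Co1 (copy Gm29216). The copy of mt-Nd4, Gm28439, matches over 876 bases and held at most 0.0927%. How the deposited values were divided between gene and copy therefore differed between genes, and reads of the gene and of the copy cannot be told apart. Values of these members are given below as deposited and, chosen after the data were seen, with the copies added. The members mt-Atp8, mt-Cytb, mt-Nd1, mt-Nd5 and mt-Nd6 share no such stretch with a pseudogene, and mt-Nd2 shares 3.2% of its stretches with Gm13339 on chromosome 2.

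A second limit is overlap within mitochondrial DNA. The annotated transcript of mt-Atp8, a short subunit of ATP synthase (chrMT:7766-7969, plus strand), is shown with the 43 bases it shares with mt-Atp6 in capitals.
mt-Atp8: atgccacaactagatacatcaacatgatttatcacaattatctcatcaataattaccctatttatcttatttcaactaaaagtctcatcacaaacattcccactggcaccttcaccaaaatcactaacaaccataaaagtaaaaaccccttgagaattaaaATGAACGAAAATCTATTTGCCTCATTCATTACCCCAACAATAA
Its effective length in the table was 27.1 of 204 bases, and it took on average 18.8% of the mitochondrial sum in Scl-cGVHD IgG skin and 21.2% in syngeneic IgG skin. Its levels were 3159, 5576 and 7085 TPM in Scl-cGVHD IgG mice, against 15325, 16110.2 and 10902 TPM in syngeneic IgG mice. The log2 fold change of -1.48 had a standard error of 1.09 (limma adjusted p = 0.319). mt-Nd4l, a complex I subunit that shares 7 bases with mt-Nd4, was likewise short, with an effective length of 99.9 bases. It had 282, 539 and 647 TPM in Scl-cGVHD IgG mice and 1876, 2578 and 1372 TPM in syngeneic IgG mice (log2 fold change -2.02, SE 1.21, limma adjusted p = 0.222). Both groups of mice stood apart for both genes, but the spread on the log scale was wide.

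In control-treated mice, Scl-cGVHD skin held less mitochondrial mRNA than syngeneic skin. The 13 members together took 2.23, 2.78 and 3.19% of all TPM in Scl-cGVHD IgG mice (mean 2.74% ± 0.480, SD, n = 3) and 7.21, 6.49 and 6.25% in syngeneic IgG mice (mean 6.65% ± 0.499, SD, n = 3). With the copies added, the sums were 4.97, 5.51 and 6.25% in Scl-cGVHD IgG mice and 13.1, 11.6 and 11.8% in syngeneic IgG mice. The groups did not overlap in either form. The 5 members without a copy took 0.950, 1.31 and 1.57% in Scl-cGVHD IgG mice, against 3.37, 3.18 and 2.77% in syngeneic IgG mice, again with no overlap. Log2 fold changes were negative for all 13 members, here and after median-ratio, trimmed-mean or quantile scaling, with a median of -1.27 (-0.89 by median-ratio factors). Called lower were 3 of the 13, beside 17.9% of all genes tested, and 8 of the 13 had an unadjusted p under 0.05. In 12 of the 13 every Scl-cGVHD IgG mouse lay below every syngeneic IgG mouse, a separation seen in 41% of all genes. With the copies added, 3 were called lower again, beside 17.9% of all genes.

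**Figure D1:**
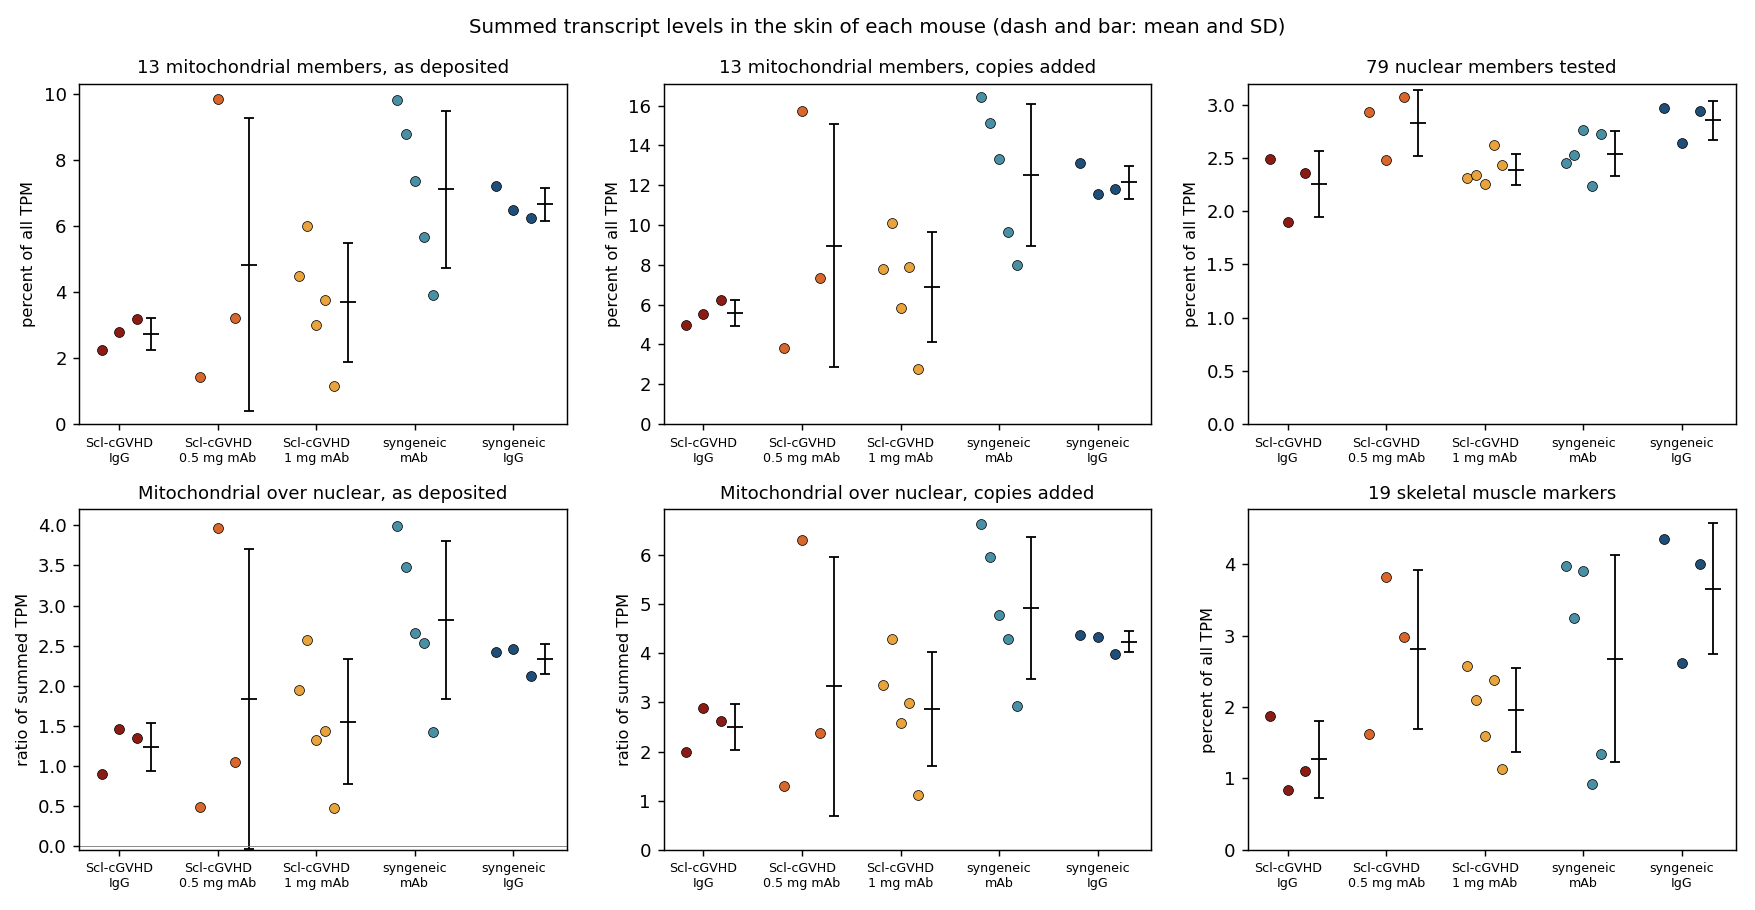
Each point is 1 mouse, and the dash and bar give the mean and SD of its group, from Scl-cGVHD groups on the left to syngeneic groups on the right. The panels show the percent of all TPM in the mitochondrial members as deposited and with pseudogene copies added, in the nuclear members and in 19 skeletal muscle markers, and the ratio of mitochondrial to nuclear sums. The 3 Scl-cGVHD IgG mice lie between 2.23% and 3.19% for the mitochondrial members as deposited, all below the syngeneic IgG mice at 6.25% to 7.21%, while mouse ID_1540 (0.5 mg mAb) reaches 9.83%.

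The called mitochondrial members were mt-Co3, mt-Nd3 and mt-Co2, all with nearly identical copies. mt-Co3 codes for a core subunit of cytochrome c oxidase. It had 1329, 2133 and 1792 TPM in Scl-cGVHD IgG mice, against 4464, 3091 and 4577 TPM in syngeneic IgG mice (log2 fold change -1.21, SE 0.32, limma adjusted p = 0.0129). With Gm28437 added, it had 6068, 6795 and 7323 TPM in Scl-cGVHD IgG mice and 17054, 13954 and 14904 TPM in syngeneic IgG mice (log2 fold change -1.18, SE 0.40, limma adjusted p = 0.0392). The groups did not overlap in either form. Leaving out syngeneic mouse ID_1527 ended the call as deposited (adjusted p = 0.0519).

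mt-Nd3 had 541, 759 and 574 TPM in Scl-cGVHD IgG mice and 1153, 1485 and 1292 TPM in syngeneic IgG mice (log2 fold change -1.08, SE 0.31, limma adjusted p = 0.0203). With Gm28438 added, the values were 2489, 2765 and 2739.5 TPM in Scl-cGVHD IgG mice, against 7183, 5843 and 6148 TPM in syngeneic IgG mice (log2 fold change -1.26, SE 0.32, limma adjusted p = 0.0119). The lowest syngeneic mouse stood above the highest Scl-cGVHD IgG mouse in both forms. As deposited, the call was lost without ID_1528 (adjusted p = 0.0722), ID_1529 (0.0508), ID_1535 (0.0537) or ID_1538 (0.0593).

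mt-Co2, the subunit of cytochrome c oxidase that takes electrons from cytochrome c, had 750.2, 731 and 706 TPM in Scl-cGVHD IgG mice, against 1292, 816 and 1792 TPM in syngeneic IgG mice (log2 fold change -0.76, SE 0.26, limma adjusted p = 0.0403). These deposited values were a small part of the signal: with Gm28661 added, the levels were 11234, 10525 and 11962 TPM in Scl-cGVHD IgG mice and 19938, 17153 and 20089.8 TPM in syngeneic IgG mice (log2 fold change -0.76, SE 0.24, limma adjusted p = 0.0276). The fold change was alike in both forms and the groups did not overlap. As deposited, the call held only with every mouse or without ID_1528, and adjusted p was 0.0654 to 0.180 without 1 of ID_1527, ID_1529, ID_1535, ID_1537 and ID_1538.

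The other mitochondrial members did not pass the test. mt-Cytb, the mitochondrial subunit of complex III, had 2563, 2966 and 3126 TPM in Scl-cGVHD IgG mice, against 8141, 7103 and 7664 TPM in syngeneic IgG mice (log2 fold change -1.41, SE 0.56, limma adjusted p = 0.0749). mt-Nd1, a core subunit of complex I, had 3368, 4201 and 4871 TPM in Scl-cGVHD IgG mice and 8918, 7394 and 8239.6 TPM in syngeneic IgG mice (log2 fold change -0.99, SE 0.43, limma adjusted p = 0.0939). All Scl-cGVHD IgG mice lay below all syngeneic IgG mice for both genes, yet neither passed the threshold in the fit that shares its spread over 5 groups. When the 2 IgG groups were fitted alone, 11 of the 13 mitochondrial members were called lower. The share of all genes called in that fit is not given here, so this count cannot be called particular to the members. mt-Co1, the catalytic subunit of cytochrome c oxidase, whose copy Gm29216 differs at 6 of 492 aligned bases, had 5701, 6326 and 7729 TPM in Scl-cGVHD IgG mice, against 18130.2, 15179.7 and 14303 TPM in syngeneic IgG mice (log2 fold change -1.27, SE 0.60, limma adjusted p = 0.126). mt-Atp6, the proton channel subunit of ATP synthase, had 896, 723 and 959 TPM in Scl-cGVHD IgG mice and 1413, 1228 and 1621 TPM in syngeneic IgG mice (log2 fold change -0.73, SE 0.31, limma adjusted p = 0.0917). The groups again did not overlap. The remaining complex I subunits mt-Nd2, mt-Nd4 and mt-Nd5 had log2 fold changes of -1.46, -1.39 and -1.54 (limma adjusted p = 0.0724, 0.123 and 0.199), each without overlap.

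mt-Nd6 is the member encoded on the other strand, and its end overlaps mt-Nd5 by 14 bases. It had 152, 53.3 and 159 TPM in Scl-cGVHD IgG mice and 209, 169.9 and 122 TPM in syngeneic IgG mice (log2 fold change -0.58, SE 0.31, limma adjusted p = 0.178). This was the only mitochondrial member whose IgG groups overlapped. The mitochondrial ribosomal RNAs, which are not members, did not pass the test. mt-Rnr1 had 823, 836 and 794 TPM in Scl-cGVHD IgG mice, against 996, 923 and 778 TPM in syngeneic IgG mice, and the log2 fold changes of mt-Rnr1 and mt-Rnr2 were -0.13 and -0.17.

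The 79 tested nuclear members together took 2.49, 1.90 and 2.36% of TPM in Scl-cGVHD IgG mice (mean 2.25% ± 0.309, SD, n = 3), against 2.97, 2.64 and 2.94% in syngeneic IgG mice (mean 2.85% ± 0.183, SD, n = 3). Called lower were 34 of the 79 and called higher was 1, Ndufa4l2, beside 17.9% lower and 6.84% higher of all genes. The median log2 fold change was -0.44, and -0.06 by median-ratio, -0.10 by trimmed-mean and -0.52 by quantile scaling. The sign held under each scaling, and the size did not, and the medians of complexes I, III and V also stayed negative. Every Scl-cGVHD IgG mouse was below every syngeneic IgG mouse for 51 of the 79 and above for 1, beside 41% and 10.4% of all genes. The count of 34 was 5 by median-ratio and 6 by trimmed-mean factors, 44 with quantile normalization, and 45 with the mitochondrial genes taken out and the rest rescaled. It was 7 without ID_1527, 7 without ID_1537 and 17 without ID_1529, and lay between 23 and 42 without any other mouse of these 2 groups. The 17.9% belongs to the main fit, and the shares of all genes called in these other fits are not given here.

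**Figure D2:**
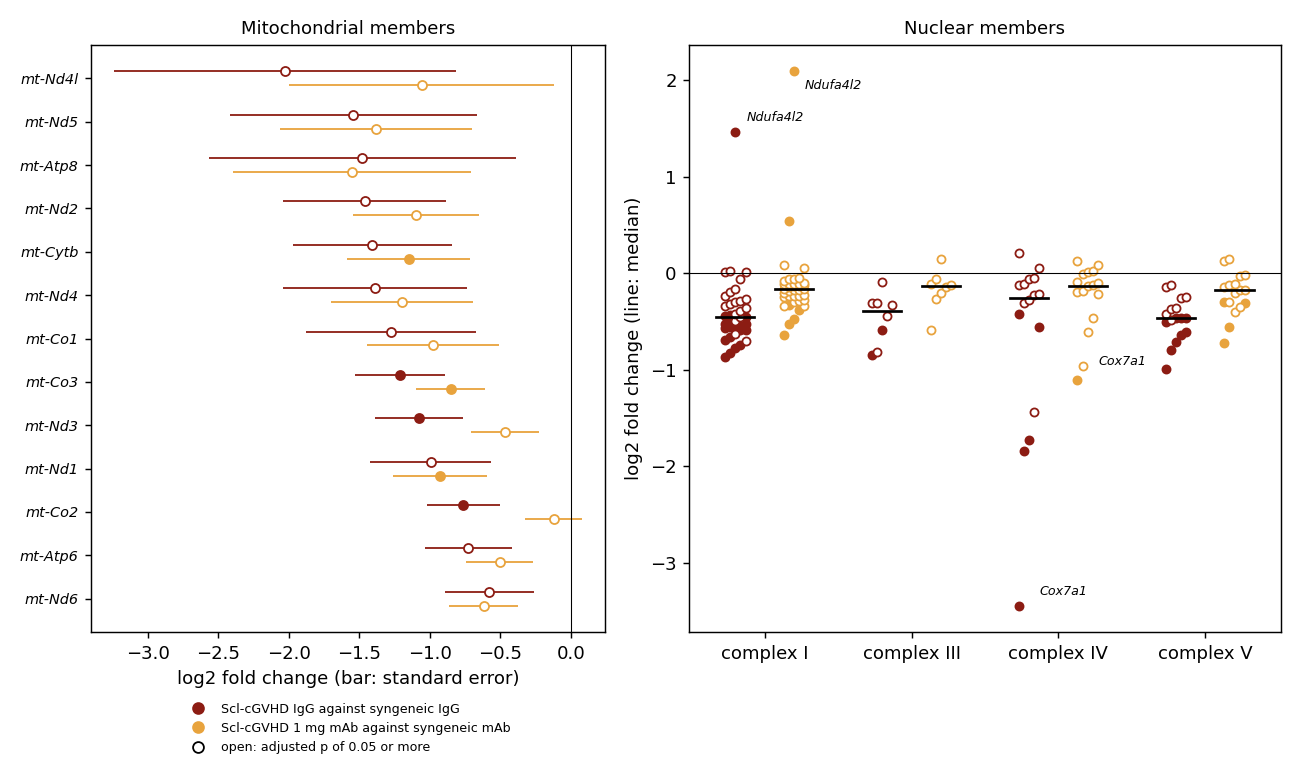
Log2 fold changes on the log2(TPM + 1) scale of the 13 mitochondrial members as deposited (left, bars are standard errors) and of the 79 nuclear members by complex (right, lines are medians), for Scl-cGVHD IgG against syngeneic IgG and for Scl-cGVHD 1 mg mAb against syngeneic mAb. Filled points have a limma adjusted p under 0.05. All mitochondrial points lie below 0 on this scale (12 of 13 in the mAb pair by median-ratio factors), and Ndufa4l2 stands alone at the top of the genes placed in complex I by symbol (1.46 and 2.09).

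Complex I, which takes electrons from NADH, had 18 of 38 members by symbol lower and 1 higher, beside 17.9% and 6.84% of all genes. The 38 include Ndufa4, a subunit of complex IV, its paralogue Ndufa4l2, which was the 1 called higher, and the second Ndufa13 model. The median log2 fold change was -0.45. Ndufs1, which carries iron-sulphur clusters in the peripheral arm, had 60.2, 45.1 and 59.3 TPM in Scl-cGVHD IgG mice, against 108, 96.6 and 96.4 TPM in syngeneic IgG mice. It fell by 0.87 on the log2 scale (SE 0.18, limma adjusted p = 0.00399) with a wide gap between the groups. Ndufv1, which holds the NADH-binding site, had 99.1, 69.3 and 105 TPM in Scl-cGVHD IgG mice and 177, 148 and 154 TPM in syngeneic IgG mice (log2 fold change -0.82, SE 0.20, limma adjusted p = 0.00894). Ndufb2, an accessory subunit of the membrane arm, fell to 160.0, 115 and 136 TPM in Scl-cGVHD IgG mice, against 265, 213 and 208 TPM in syngeneic IgG mice (log2 fold change -0.74, limma adjusted p = 0.00798). None of these genes' groups overlapped. By median-ratio factors Ndufs1 kept its call, whereas Ndufv1 (adjusted p = 0.0652) and Ndufb2 (adjusted p = 0.301) lost it.

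Complex III, which passes electrons from ubiquinol to cytochrome c, had 2 of 8 members lower (median -0.39), beside 17.9% of all genes. The core subunit gene Uqcrc1 had 190.2, 127 and 196 TPM in Scl-cGVHD IgG mice, against 303, 283 and 320.1 TPM in syngeneic IgG mice (log2 fold change -0.84, SE 0.21, limma adjusted p = 0.0104). The groups did not overlap, and without ID_1537, the mouse with the lowest value, the call was gone (adjusted p = 0.0556). Uqcrfs1, the Rieske iron-sulphur protein, had 126, 117 and 141 TPM in Scl-cGVHD IgG mice and 206, 183 and 188 TPM in syngeneic IgG mice (log2 fold change -0.58, limma adjusted p = 0.0224), and lost its call without ID_1527 (adjusted p = 0.0817), ID_1529 (0.0511) or ID_1537 (0.079). The other core subunit gene Uqcrc2 and the small subunit gene Uqcr11 had log2 fold changes of -0.81 and -0.44 and did not pass (limma adjusted p = 0.0651 and 0.0588).

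Nuclear respiratory genes are known targets of the transcription factor NRF1, and the promoter of Uqcrc1 (RefSeq, GRCm38.p6, chr9:108936398-108936697, plus strand, 250 bases before to 50 after the start) shows its motif. The motif, GCGCA and GCGC with any 1 base between them, was searched on both strands and its matches are in capitals.
Uqcrc1: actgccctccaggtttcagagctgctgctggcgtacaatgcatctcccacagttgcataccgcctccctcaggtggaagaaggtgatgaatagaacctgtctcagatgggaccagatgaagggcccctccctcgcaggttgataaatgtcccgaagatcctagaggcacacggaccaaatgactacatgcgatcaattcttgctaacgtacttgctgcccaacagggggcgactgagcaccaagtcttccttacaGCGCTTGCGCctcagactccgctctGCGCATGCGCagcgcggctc
RefSeq promoter windows were found for 66 of the 80 nuclear symbols, 72 windows in all. This motif was in 22.2% of the 72, against 4.6% of all 32851 windows of 300 bases, the ETS core CCGGAAG in 19.4% against 8.86%, and the YY1 core AAGATGGC in 16.7% against 2.75%. These letters describe the windows and are not binding measurements.

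In complex IV, which reduces oxygen to water, 5 of 16 tested members were lower, beside 17.9% of all genes (median -0.25, but 0.11 by median-ratio and 0.08 by trimmed-mean factors). These included the muscle isoform genes Cox7a1 and Cox8b, the testis isoform gene Cox6b2 and the general subunit gene Cox6c. Cox7a1 had 61.4, 7.81 and 14.8 TPM in Scl-cGVHD IgG mice, against 309.8, 151 and 234 TPM in syngeneic IgG mice, the largest fall among the 92 tested members (log2 fold change -3.44, SE 0.74, limma adjusted p = 0.00522). Its widely expressed counterpart Cox7a2 had 255, 216 and 265 TPM in Scl-cGVHD IgG mice and 255, 251 and 252 TPM in syngeneic IgG mice (log2 fold change -0.05), with overlap. Cox8b had 207, 98.1 and 127 TPM in Scl-cGVHD IgG mice, against 611, 338 and 586 TPM in syngeneic IgG mice (log2 fold change -1.84, SE 0.48, limma adjusted p = 0.0125), and without ID_1527 or ID_1537 it did not pass (adjusted p = 0.052 and 0.0543). Cox6b2 had 6.36, 7.69 and 5.54 TPM in Scl-cGVHD IgG mice and 18.2, 26.6 and 27.7 TPM in syngeneic IgG mice (log2 fold change -1.73, SE 0.31, limma adjusted p = 0.00179). Cox6c had 709, 599.7 and 748 TPM in Scl-cGVHD IgG mice, against 1094, 904 and 1028 TPM in syngeneic IgG mice. It fell by 0.56 on the log2 scale (limma adjusted p = 0.0106), a call lost without ID_1527 (adjusted p = 0.0523) or ID_1537 (0.0505).

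The muscle isoform genes moved beside the skeletal muscle content of the samples. The muscle isoform gene Cox6a2 had 246, 68.8 and 99.2 TPM in Scl-cGVHD IgG mice, against 349, 225 and 432 TPM in syngeneic IgG mice, with overlap between the groups and no call (log2 fold change -1.44, limma adjusted p = 0.0641). The 19 muscle markers took 1.87, 0.835 and 1.10% of TPM in Scl-cGVHD IgG mice, against 4.35, 2.61 and 4.004% in syngeneic IgG mice. Called lower were 9 of the 19, beside 17.9% of all genes. None of the 19 was at 0 in any mouse. Fat cell markers took 0.0607, 0.0979 and 0.713% in Scl-cGVHD IgG mice and 0.552, 0.639 and 0.698% in syngeneic IgG mice. Over all mice the mean log2 level of the fat cell markers was 3.61 to 7.43 in the 11 Scl-cGVHD and 7.005 to 7.997 in the 8 syngeneic mice. Of 9 sebaceous gland markers, 7 were called lower with IgG and 8 in Scl-cGVHD 1 mg mAb against syngeneic mAb, beside 17.9% and 28.3% of all genes. At 0 in some mouse were 4 of the 9. The mean log2 level of the 9 did not overlap (1.54 to 5.03 in Scl-cGVHD and 5.09 to 6.07 in syngeneic mice), while their share of TPM did (0.00946% to 0.136% in Scl-cGVHD and 0.0902% to 0.195% in syngeneic mice). Of 4 brown fat markers (Ucp1, Cidea, Ppargc1a and Elovl3, the last also on the sebaceous gland list), 3 were tested and 2 were called lower in each disease pair, with median log2 fold changes of -3.13 with IgG and -2.79 with mAb. They took 0.00043% to 0.00574% of TPM in Scl-cGVHD and 0.00742% to 0.0159% in syngeneic mice, without overlap, and Ucp1 itself was at 0 to 0.63 TPM in all mice. With the mean log2 level of the muscle markers as a covariate, 0 of 13 mitochondrial and 2 of 79 nuclear members were called lower in the IgG comparison by limma (1 and 14 had an unadjusted p under 0.05), and with that of the fat cell markers 0 and 1 (1 and 40 unadjusted). In Scl-cGVHD 1 mg mAb against syngeneic mAb mice, the muscle covariate left 2 of 13 mitochondrial and 10 of 79 nuclear members lower and 2 nuclear members higher, against 3, 10 and 2 without it. How many of all genes were called with either covariate is not given here. Whether the members lost calls more than genes in general therefore cannot be seen. The IgG groups overlapped in neither covariate (muscle 7.34 to 9.10 against 9.42 to 10.1, fat 4.62 to 7.43 against 7.56 to 7.997). The mAb groups did not overlap in fat cell level (3.61 to 4.85 against 7.005 to 7.81). Calls lost with a covariate that does not overlap cannot be told apart from a group difference taken out with it. With IgG, none of the 9 general counterparts (Cox4i1, Cox6a1, Cox6b1, Cox7a2, Cox7b, Cox8a, Ndufa4, Atp5g2 and Atp5g3) was called, with log2 fold changes of -0.28 to 0.22. In the mAb pair Ndufa4 was called higher (log2 fold change 0.54, limma adjusted p = 0.0397), and the others were not called. The part of muscle, fat, sebaceous glands or brown fat in any of these differences was not tested.

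Cox7a1 also shows how such promoters vary. Its RefSeq promoter (GRCm38.p6, chr7:30183921-30184220, plus strand) holds no NRF1 motif but 1 match to ACGTG, the core of the hypoxia response element, on the minus strand, in capitals.
Cox7a1: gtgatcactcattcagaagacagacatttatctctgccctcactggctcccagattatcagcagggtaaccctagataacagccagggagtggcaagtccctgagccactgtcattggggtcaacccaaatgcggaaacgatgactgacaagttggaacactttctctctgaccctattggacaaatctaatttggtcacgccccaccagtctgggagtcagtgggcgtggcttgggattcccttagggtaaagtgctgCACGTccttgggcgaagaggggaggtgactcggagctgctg
ACGTG was in 27.8% of the 72 windows of nuclear members, against 19.6% of all windows. A match to so short a core is not a binding measurement. Ndufa4l2 was not among the members with a match, and whether it had a window is not given here.

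Of the 17 members placed in complex V by their symbols, 9 were lower, beside 17.9% of all genes (median -0.46, and -0.08 by median-ratio factors). Atp5s, the coupling factor B gene, had 5.04, 3.06 and 2.87 TPM in Scl-cGVHD IgG mice, against 7.92, 8.90 and 7.41 TPM in syngeneic IgG mice (log2 fold change -0.99, SE 0.25, limma adjusted p = 0.0119). Levels were low but the groups did not overlap. The stalk subunit gene Atp5f1 and the catalytic head genes Atp5a1 and Atp5b fell by 0.50, 0.63 and 0.46 on the log2 scale (limma adjusted p = 0.0172, 0.0214 and 0.0232). All 3 lost their calls without ID_1527 (adjusted p = 0.0713 to 0.0732) or without ID_1537 (0.0671 to 0.112), and Atp5a1 and Atp5b also without ID_1528 (0.0578 and 0.0633), and Atp5b without ID_1529 (0.0538). Atp5g1, a gene for the c subunit of the proton-driven ring, had a log2 fold change of -0.49 and did not pass (limma adjusted p = 0.0581).

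Ndufa4l2 was called higher in both disease pairs. It codes for a paralogue of NDUFA4 and is known as a gene induced by low oxygen that restrains the respiratory chain. The gene lies at chr10:127514967-127517154 (plus strand, GRCm38), and its end overlaps Shmt2. Ndufa4l2 had 1034, 422 and 636 TPM in Scl-cGVHD IgG mice, against 228, 195 and 295 TPM in syngeneic IgG mice (log2 fold change 1.46, SE 0.35, limma adjusted p = 0.00862). It had 754, 708, 740.2, 842 and 1299 TPM in Scl-cGVHD 1 mg mAb mice and 219, 219, 203, 101 and 303 TPM in syngeneic mAb mice (log2 fold change 2.09, SE 0.27, limma adjusted p = 7.39e-05). Among the 92 tested members it was the only one for which all 11 Scl-cGVHD mice (422 to 1299 TPM) and all 8 syngeneic mice (101 to 303 TPM) did not overlap, against 1.9% of all genes with every Scl-cGVHD mouse above and 5.63% with every one below. Neither call was lost by leaving out any 1 mouse of its own pair, and the direction held under all 3 scalings tried. Both were lost with fat cell level as a covariate (adjusted p = 0.152 and 0.0884), and the IgG call with no filter on low values (adjusted p = 0.0626). Fat cell level did not overlap between the groups of either pair, so this loss cannot be told apart from a group difference taken out with it.

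Ndufa4, the main form and a subunit of complex IV, was not called with IgG. It had 800.5, 436 and 764 TPM in Scl-cGVHD IgG mice, against 676, 576 and 648 TPM in syngeneic IgG mice (log2 fold change 0.03, limma adjusted p = 0.945). In mAb-treated mice it had 794, 676, 900.3, 938 and 878 TPM in Scl-cGVHD and 551, 585, 668, 489 and 583 TPM in syngeneic skin (log2 fold change 0.54, SE 0.20, limma adjusted p = 0.0397). These mAb groups did not overlap, but the call was lost without any 1 of ID_1530, ID_1531, ID_1533, ID_1534, ID_1542, ID_1544, ID_1545 and ID_1546 (adjusted p = 0.053 to 0.0869). The ratio of Ndufa4l2 to Ndufa4 was 0.694 to 1.48 in the 11 Scl-cGVHD mice and 0.207 to 0.520 in the 8 syngeneic mice.

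**Figure D3:**
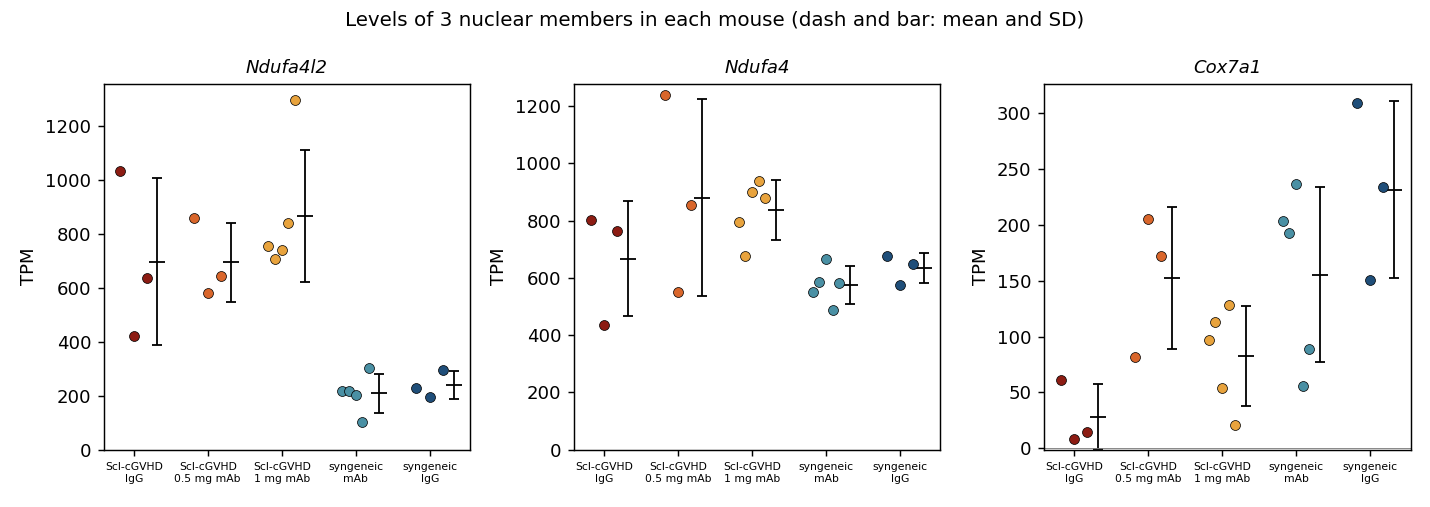
TPM of Ndufa4l2, Ndufa4 and Cox7a1 in each mouse (points) with the group mean and SD (dash and bar). Ndufa4l2 lies at 422 TPM or more in every Scl-cGVHD mouse and at 303 TPM or less in every syngeneic mouse, while Ndufa4 overlaps between the models as a whole and Cox7a1 is lowest in the Scl-cGVHD IgG mice ID_1537 and ID_1538.

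The ratio of mitochondrial to nuclear sums set the 2 genomes against each other within each mouse. It was 0.897, 1.46 and 1.35 in Scl-cGVHD IgG mice, against 2.42, 2.46 and 2.12 in syngeneic IgG mice, a difference of -0.94 in mean log2 ratio. With copies added on both sides, it was 1.98, 2.88 and 2.63 in Scl-cGVHD IgG mice and 4.38, 4.34 and 3.98 in syngeneic IgG mice (difference -0.78). The groups did not overlap in either form. In the other pair the deposited ratio was 1.94, 2.57, 1.33, 1.44 and 0.475 in Scl-cGVHD 1 mg mAb mice and 3.996, 3.49, 2.66, 2.54 and 1.43 in syngeneic mAb mice, a log2 difference of -0.98 with overlap. Over all mice the ratio was 0.475 to 3.97 (median 1.35) in the 11 Scl-cGVHD mice and 1.43 to 4.0 (median 2.5) in the 8 syngeneic mice. When each mouse was centred on its nuclear members, 0 mitochondrial members were called in either pair by limma (1 with IgG and 3 with mAb at an unadjusted p under 0.05), beside 3.62% (IgG) and 11.5% (mAb) of all genes called lower. With copies added and the same centring, 0 were called again by limma, beside 3.61% (IgG) and 11.5% (mAb) of all genes, and 1 (IgG) and 6 (mAb) had an unadjusted p under 0.05.

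The 1 mg mAb group was set against syngeneic mAb mice, a comparison that shares no mouse with the IgG pair. Both pairs use the same estimate of spread for each gene, taken over all 5 groups, so their calls are not independent. The mitochondrial members took 4.48, 6.01, 3.00, 3.76 and 1.16% of TPM in Scl-cGVHD 1 mg mAb mice (mean 3.68% ± 1.80, SD, n = 5), against 9.81, 8.79, 7.34, 5.66 and 3.899% in syngeneic mAb mice (mean 7.10% ± 2.38, SD, n = 5). With the copies added, they took 7.81, 10.1, 5.84, 7.89 and 2.75% in Scl-cGVHD 1 mg mAb mice and 16.4, 15.2, 13.3, 9.67 and 8.01% in syngeneic mAb mice. The groups overlapped in both forms, through ID_1533 and ID_1534 among the syngeneic mice, and ID_1546 had the lowest mitochondrial share of all 19 mice. Muscle markers took 2.58, 2.10, 1.60, 2.37 and 1.13% of TPM in Scl-cGVHD 1 mg mAb mice and 3.98, 3.24, 3.91, 0.914 and 1.34% in syngeneic mAb mice, with 0 of 19 called by limma and 2 at an unadjusted p under 0.05. Within these 2 groups the lowest muscle shares were those of ID_1546 among Scl-cGVHD and ID_1533 among syngeneic mice. Fat cell markers took 0.0306% to 0.0804% in Scl-cGVHD 1 mg mAb mice and 0.391% to 0.600% in syngeneic mAb mice. Whether either plays a part was not tested.

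Of the mitochondrial members, mt-Co3, mt-Nd1 and mt-Cytb were called lower (3 of 13, beside 28.3% of all genes), and all 13 fold changes were negative (12 by median-ratio and trimmed-mean factors), with a median of -0.98. mt-Co3 had 2227, 2449, 1837, 1771 and 1274 TPM in Scl-cGVHD 1 mg mAb mice, against 3979, 3231, 4272, 2849 and 2771 TPM in syngeneic mAb mice, with no overlap (log2 fold change -0.85, SE 0.25, limma adjusted p = 0.0135). mt-Nd1 had 4922, 6101, 4188, 5329 and 1939.6 TPM in Scl-cGVHD 1 mg mAb mice and 10974, 9152, 9116, 6110.1 and 5749 TPM in syngeneic mAb mice (log2 fold change -0.93, SE 0.33, limma adjusted p = 0.0375). mt-Cytb had 4181, 5655, 3234, 4624 and 1199 TPM in Scl-cGVHD 1 mg mAb mice, against 10256, 9388, 8516, 5746 and 4833 TPM in syngeneic mAb mice (log2 fold change -1.15, SE 0.44, limma adjusted p = 0.0488). mt-Nd1 and mt-Cytb overlapped between the groups, whereas mt-Co3 kept its call without any 1 mouse of these 2 groups. The call of mt-Nd1 was lost without 1 of ID_1530, ID_1531, ID_1532, ID_1544 and ID_1546 (adjusted p = 0.0651 to 0.110). That of mt-Cytb was lost without any 1 mouse of these groups other than ID_1534 and ID_1543 (0.0536 to 0.139). With the copies added, 6 of 13 were called lower, beside 28.4% of all genes: mt-Co3, mt-Nd1 and mt-Cytb as before, and mt-Nd3 (log2 fold change -0.87, limma adjusted p = 0.0130), mt-Co2 (-0.58, 0.0215) and mt-Atp6 (-0.86, 0.0422). As deposited, these last 3 had log2 fold changes of -0.47, -0.12 and -0.50 and did not pass (0.130, 0.645 and 0.104), so these calls depended on whether the copy was added.

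Of the nuclear members, 10 of 79 were lower and 2 higher in Scl-cGVHD 1 mg mAb mice against syngeneic mAb mice, beside 28.3% and 7.99% of all genes. The median was -0.16, and 0.21 by median-ratio and 0.17 by trimmed-mean factors, so its sign rests on the scaling. By symbol, complex I had 5 lower and 2 higher of 38, complex III 0 of 8 by limma (1 at an unadjusted p under 0.05), complex IV 1 of 16 and complex V 4 of 17. The 2 higher were Ndufa4l2 and Ndufa4, and Ndufa4 is a subunit of complex IV. For 6 nuclear members every Scl-cGVHD mouse lay below and for 2 above every syngeneic mouse, beside 20.6% and 5.96% of all genes, and for mitochondrial members this was 2 of 13 below. Cox6b2 had 7.02, 7.21, 5.38, 8.88 and 10.03 TPM in Scl-cGVHD 1 mg mAb mice, against 16, 18.2, 9.32, 18.3 and 31.9 TPM in syngeneic mAb mice (log2 fold change -1.11, SE 0.24, limma adjusted p = 0.00249). Atp5s had 3.75, 5.57, 3.41, 3.68 and 3.39 TPM in Scl-cGVHD 1 mg mAb mice and 7.82, 7.40, 9.03, 5.11 and 6.64 TPM in syngeneic mAb mice (log2 fold change -0.72, SE 0.20, limma adjusted p = 0.00987). Ndufs1 had 58.6, 71.4, 54.1, 66.9 and 45.4 TPM in Scl-cGVHD 1 mg mAb mice, against 103, 93.5, 98.1, 84.9 and 81.9 TPM in syngeneic mAb mice (log2 fold change -0.64, SE 0.14, limma adjusted p = 0.0026). Of these genes Ndufs1 did not overlap, Cox6b2 overlapped through ID_1546 and ID_1532, and Atp5s through ID_1543 and ID_1533. The muscle isoform gene Cox7a1 had 97.3, 114, 53.9, 128 and 20.5 TPM in Scl-cGVHD 1 mg mAb mice and 204, 193, 237, 56.1 and 88.6 TPM in syngeneic mAb mice and did not pass (log2 fold change -0.96, SE 0.58, limma adjusted p = 0.191). The count of 10 fell to 5 or 6 without 1 of ID_1530, ID_1531, ID_1532, ID_1544 and ID_1546, and was 15 without ID_1533 and 16 without both mice with high hair keratins. For these fits too, the share of all genes called is not given.

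Members called in both pairs were mt-Co3, Ndufa4l2 and 10 nuclear genes that were lower. The 10 were Ndufs1, Ndufs4, Ndufs8, Ndufv1 and Ndufb2 of complex I, Cox6b2 of complex IV, and Atp5f1, Atp5h, Atp5s and Atp5sl by their complex V symbols. They made up 29.4% of the 34 called lower with IgG and 100% of the 10 called lower with mAb. Of all genes, 17.9% and 28.3% were called lower in these pairs. The overlap over all genes was not counted, so these shares cannot be called particular to the members. Both pairs share 1 estimate of spread per gene, so the lists are not independent.

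The mAb was set against IgG within Scl-cGVHD, comparisons that share the 3 Scl-cGVHD IgG mice with the disease comparison above. With 1 mg mAb, 0 of the 13 mitochondrial and 0 of the 79 nuclear members passed in limma, beside 0% of all genes, with 0 and 1 (Cox7a1) at an unadjusted p under 0.05. The median log2 fold changes were 0.23 and 0.09. Cox7a1 was at 20.5 to 128 TPM in 1 mg mAb mice, against 7.81 to 61.4 TPM in Scl-cGVHD IgG mice, with overlap (log2 fold change 1.77, limma adjusted p = 0.376). With 0.5 mg mAb, 0 members passed in limma, beside 0.055% of all genes (0.0428% lower and 0.0122% higher), and 1 mitochondrial and 31 nuclear members had an unadjusted p under 0.05. The 31 became 9 by median-ratio and 11 by trimmed-mean factors and 3 with centring on the nuclear members. Here 77 of 79 nuclear fold changes were positive (median 0.32), and for 24 nuclear and 2 mitochondrial members every 0.5 mg mouse lay above every IgG mouse, beside 4.25% of all genes above and 6.88% below. With 1 mg mAb the same held for 1 mitochondrial and 0 nuclear members, beside 1.13% above and 2.78% below. Without ID_1535 in the IgG group, 4 nuclear members were called higher with 0.5 mg and 1 with 1 mg mAb. The share of all genes called without this mouse is not given here, so these counts cannot be called particular to the members.

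The 0.5 mg group had the widest spread in mitochondrial share (SD 4.43). Its mitochondrial share was 1.42, 9.83 and 3.21% in ID_1539, ID_1540 and ID_1541, and 3.83, 15.8 and 7.33% with the copies added. mt-Cytb was at 1394, 9299 and 4227 TPM and mt-Nd1 at 2621, 10318 and 5010.5 TPM in these mice. So 1 mouse had the highest and another the second lowest share of all 11 Scl-cGVHD mice, while the nuclear share was 2.93, 2.48 and 3.07%. Muscle markers took 1.62, 3.82 and 2.98% of TPM in the same mice. mt-Co2 as deposited was 1248, 1259.7 and 1251 TPM in 0.5 mg mAb mice, against 750.2, 731 and 706 TPM in Scl-cGVHD IgG mice (log2 fold change 0.78, SE 0.26, limma adjusted p = 0.183). With its copy added it was 11799, 18694 and 17205 TPM in 0.5 mg mAb mice and 11234, 10525 and 11962 TPM in Scl-cGVHD IgG mice. Between 1 mg and 0.5 mg mAb 0 members passed in limma (1 mitochondrial and 22 nuclear members at an unadjusted p under 0.05, the 22 becoming 3 by median-ratio and 4 by trimmed-mean factors and 0 with centring), and between syngeneic mAb and syngeneic IgG 0 passed (0 unadjusted). The difference between the responses to mAb in Scl-cGVHD and syngeneic mice gave 0 calls in limma, with 0 mitochondrial and 4 nuclear members at an unadjusted p under 0.05, beside 0% of all genes called in each of these comparisons.

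Genes that feed the respiratory chain with electrons were in large part lower. Counts are given for Scl-cGVHD IgG against syngeneic IgG and then in Scl-cGVHD 1 mg mAb against syngeneic mAb, with all genes at 17.9% and 28.3% lower. Of 17 genes of pyruvate oxidation and the citric acid cycle, 12 and then 11 were lower (medians -0.82 and -0.58, negative under each scaling). Fh1, the fumarase gene, had 73.8, 62.9 and 74.1 TPM in Scl-cGVHD IgG mice, against 141, 136 and 144 TPM in syngeneic IgG mice (log2 fold change -0.99, SE 0.16, limma adjusted p = 0.00104). Of 18 genes of mitochondrial fatty acid oxidation, 15 were lower in each pair (medians -0.89 and -0.77, negative under each scaling). Acaa2, the thiolase of that pathway, had 70.1, 46.0 and 74.8 TPM in Scl-cGVHD IgG mice and 142, 156 and 149 TPM in syngeneic IgG mice (log2 fold change -1.24, SE 0.22, limma adjusted p = 0.00176). Neither gene's groups overlapped. Of 6 genes of complex II, cytochrome c and the acyl carrier subunit, 4 and then 3 were lower, among them Sdhb, the iron-sulphur subunit of succinate dehydrogenase (log2 fold changes -0.92 and -0.69, limma adjusted p = 0.00509 and 0.00331). No difference between any list and the members was tested.

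Genes of glycolysis went the other way. Of 16, 9 were higher and 1 lower with IgG and 13 higher with mAb (medians 0.93 and 0.94, positive under each scaling), beside 6.84% and 7.99% of all genes higher. Slc2a1, the glucose transporter gene also known as Glut1, had 126, 289.7 and 236 TPM in Scl-cGVHD IgG mice, against 36.4, 42.3 and 34.4 TPM in syngeneic IgG mice (log2 fold change 2.42, SE 0.32, limma adjusted p = 0.000273). Pgam1, phosphoglycerate mutase, had 462, 629 and 571 TPM in Scl-cGVHD IgG mice and 148, 200.4 and 155 TPM in syngeneic IgG mice (log2 fold change 1.72, SE 0.26, limma adjusted p = 0.00061). The lowest Scl-cGVHD IgG value of each gene was more than 2 times the highest syngeneic IgG value.

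The remaining lists hold genes that build and maintain the chain. Of all genes, 17.9% and then 28.3% were lower, and 6.84% and then 7.99% higher, with IgG and with mAb. Of 40 assembly factors, 16 with IgG and 18 with mAb were lower and 1 was higher with mAb. Among those lower was the complex I assembly gene Tmem126b (log2 fold changes -1.20 and -1.10). Of 29 genes that copy, transcribe and process mitochondrial DNA and RNA, 6 and then 17 were lower (medians -0.43 and -0.53). Lrpprc, which stabilizes mitochondrial mRNAs, had 14.5, 14.7 and 14.6 TPM in Scl-cGVHD IgG mice, against 21.3, 23.5 and 21.4 TPM in syngeneic IgG mice (log2 fold change -0.56, SE 0.15, limma adjusted p = 0.0125), and the same -0.56 in the mAb pair (limma adjusted p = 0.00162). Of 78 proteins of the mitochondrial ribosome, 12 and then 21 were lower (medians -0.25 and -0.21, positive by median-ratio and trimmed-mean factors). Of 101 cytosolic ribosomal genes, 4 and then 7 were higher and 2 and then 3 lower (median 0.09 with IgG, and -0.07 by quantile scaling). Of 10 regulators of mitochondrial biogenesis, 1 was lower with IgG, the muscle gene Perm1 (log2 fold change -2.56, limma adjusted p = 0.0239), and 2 with mAb. Of 23 genes of membrane channels, import and folding, 4 were lower in each pair. With 1 mg mAb against IgG in Scl-cGVHD mice, 0 genes of any of these lists passed in limma, with 2 of 16 glycolysis genes and 2 of 78 mitochondrial ribosome genes at an unadjusted p under 0.05.

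**Figure D4:**
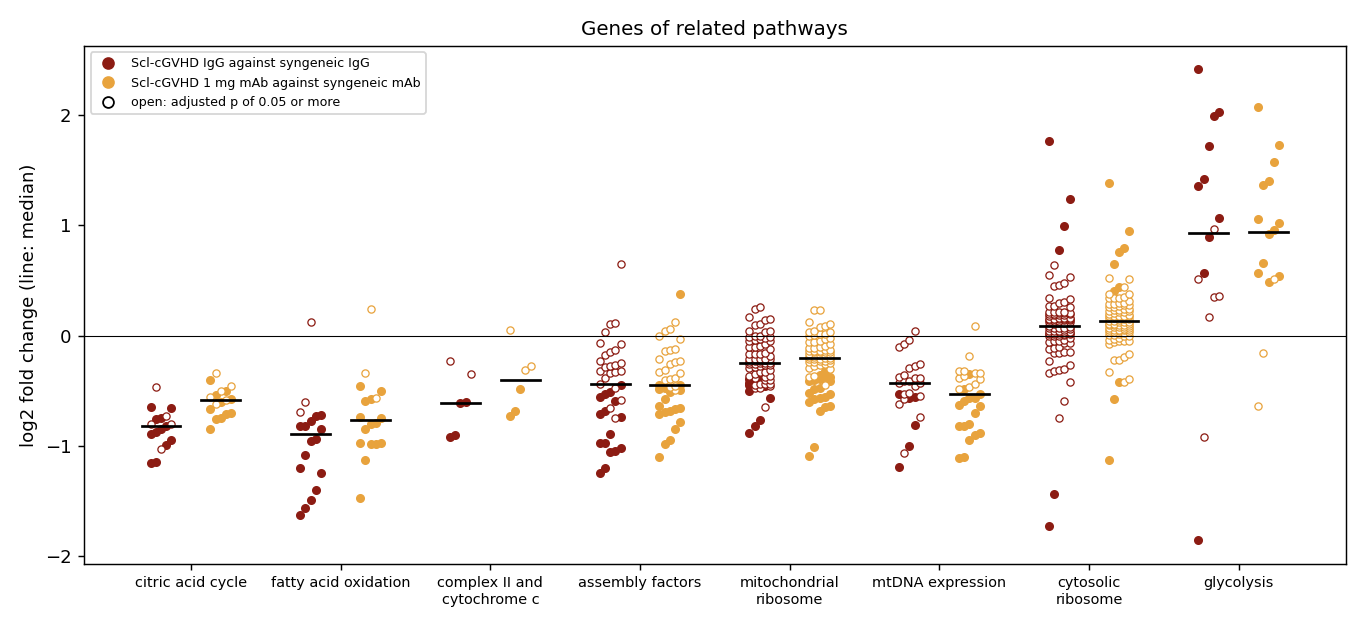
Log2 fold changes on the log2(TPM + 1) scale of single genes (points) and their medians (lines) in lists related to oxidative phosphorylation, for Scl-cGVHD IgG against syngeneic IgG and Scl-cGVHD 1 mg mAb against syngeneic mAb. Filled points have a limma adjusted p under 0.05. Citric acid cycle and fatty acid oxidation genes lie mostly below 0 (medians -0.82 and -0.89 with IgG) and glycolysis genes mostly above (0.93).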

How the data were processed

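Skin RNA of 19 mice in 5 groups was read as paired 100-base reads from poly(A)-selected, stranded libraries. Per the labels and the study's methods, the authors trimmed reads with Trimmomatic, checked them with FastQC, mapped them with STAR 2.5.2b to GRCm38 with Ensembl 88 and deposited RSEM 1.2.31 TPM per gene. TPM is a share of transcripts, so a change of abundant RNAs moves all values, and RSEM divides reads that fit several genes. The deposited alignment summary names libraries by group and was used for the depth range only. Other deposited tables of comparisons made by the authors (fold changes and p-values) were not used. The number of unmatched columns of per-sample values was 0.

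Groups were taken from the labels. log2(TPM + 1) of genes at 1 TPM or more in at least 3 mice was fitted with limma 3.58.1 (R 4.3.3, trend and robust) with 5 groups, and p-values were adjusted by Benjamini-Hochberg over 16350 genes. The fit was tested on simulated data, but the outcome is not given here and nothing above rests on it. No count test was run, because TPM keeps no counts. The labels do not say that mice came from separate experiments, so p-values measure the spread between these mice.

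Named were the 13 mitochondrial members, up to 4 members with the smallest p in each complex in the IgG comparison, isoforms and their counterparts, the 3 called members of largest fold in each direction, and up to 3 genes per pathway list. The members and lists were chosen with earlier results of these data known. Pseudogene copies were found by exact 100-base matches between GENCODE vM21 transcripts. They were added to a member as TPM times the ratio of effective lengths. Alternatives covered scaling, filters, pseudocount, covariates, the groups fitted and leaving out each mouse of the compared groups. Mice of the other groups, which also enter the shared spread, were not left out in these checks.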

Additional observations from a re-analysis of the deposited data

Results flagged for a closer look

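A single mouse stood far from the other 4 of its group, by Dixon's test (critical value 0.710), in 5 of 104 groups of values tested, where chance alone gives about 1 in 20. In the Scl-cGVHD 1 mg mAb group, ID_1543 had 1745 TPM of mt-Atp6, against 920.5 TPM in the next mouse, and 5.57 TPM of Atp5s, against 3.75 TPM. ID_1546 of the same group had 1299 TPM of Ndufa4l2, against 842 TPM in the next mouse, and also the lowest mitochondrial share of the series. ID_1544 had 568.2 TPM of Cox8a, against 542 TPM in the next mouse. In the syngeneic mAb group, ID_1533, a mouse with high hair keratins, had the lowest Cox6c level at 705 TPM, against 895 TPM in the next mouse. The mt-Atp6 value is as deposited. With the copy Gm10925 added, ID_1543 had 15093 TPM and the next mouse 12846 TPM.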

How the results depend on the processing

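No paired analysis was possible because the groups share no mouse number. In Scl-cGVHD IgG against syngeneic IgG, the 3 mitochondrial members called lower became 1 with median-ratio factors, 11 with the compared groups alone, and 0 with centring on the nuclear members (with or without copies added), no filter, or muscle or fat cell level as a covariate. The 34 nuclear members called lower became 5 with median-ratio and 6 with trimmed-mean factors, 44 with quantile normalization, 45 with mitochondrial genes taken out, 3 with no filter, 2 with muscle and 1 with fat cell level as a covariate, and the 1 called higher became 0 with no filter or fat cell level. In Scl-cGVHD 1 mg mAb against syngeneic mAb, the 3 mitochondrial members called lower became 0 with median-ratio or trimmed-mean factors, centring (with or without copies added), no filter or fat cell level, 5 with the compared groups alone or without both hair keratin-high mice, and 6 with copies added. The 10 nuclear members called lower became 1 with median-ratio and 3 with trimmed-mean factors, 3 with no filter, 0 with fat cell level and 16 without both hair keratin-high mice. The 2 called higher became 1 with quantile normalization, no filter or without both hair keratin-high mice, and 0 with fat cell level. The unfiltered fit tests more genes and the fit of compared groups alone uses fewer mice. Fat cell level did not overlap between the groups of either pair, nor muscle level between the IgG groups. Calls lost with such a covariate cannot be told apart from a group difference taken out with it. For the other settings the cause was not tested. Shares of all genes called are given above only for the main fit, centring and added copies. Counts under the other settings have no such share beside them and cannot be called particular to the members.

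Leaving out 1 mouse of the compared groups at a time gave 1 to 2 mitochondrial and 7 to 42 nuclear members lower and 1 nuclear member higher with IgG. With mAb it gave 1 to 7 mitochondrial (7 without ID_1543) and 5 to 15 nuclear members lower and 1 to 2 nuclear members higher. For 0.5 mg and 1 mg mAb against IgG in Scl-cGVHD mice it gave 0 to 4 and 0 to 1 nuclear members higher. Shares of all genes called without each mouse are not given beside these counts. Of all members called in the 2 disease pairs, 5 changed sign, all in Scl-cGVHD 1 mg mAb against syngeneic mAb. With fat cell level as a covariate, which has the limit given above, these were mt-Cytb and mt-Nd1 (log2 fold change 0.16 each). With median-ratio and trimmed-mean factors, they were Atp5f1 (0.079 and 0.038), Ndufs8 (0.05 and 0.01) and Atp5h (0.08 and 0.04). The difference between Scl-cGVHD and syngeneic groups in mean log2 ratio of mitochondrial to nuclear sums stayed negative in all forms tried. It lay between -1.03 and -0.78 with IgG and between -1.15 and -0.84 with mAb. Adding copies, the centred fit with copies and leaving out both hair keratin-high mice were chosen after the data were seen. With 3 mice in most groups, differences below the spread between mice were not detectable here.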

Other observations

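Pseudogene copies were also found for 14 nuclear members, 22 pseudogenes in all. The processed pseudogene Gm3244, which shares 291 stretches of 100 bases with the complex I gene Ndufb4, averaged 246 TPM over the 19 mice, against 65.2 TPM for Ndufb4 itself. Gm15920 averaged 54.9 TPM beside 209 TPM for Ndufa12, and Gm10175 averaged 54.6 TPM beside 394 TPM for Atp5g2. With all copies added, 35 nuclear members were lower in Scl-cGVHD IgG against syngeneic IgG in place of 34, and 10 in Scl-cGVHD 1 mg mAb against syngeneic mAb, as before. The chromosome 1 copies of mitochondrial DNA together took 2.22% to 6.92% of TPM in the 11 Scl-cGVHD mice and 4.72% to 7.65% in the 8 syngeneic mice.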
